A study of Mus musculus with 6 samples.

Results

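The cardiac developmental transcription factors described here were 10 genes, Gata4, Gata6, Mef2a, Mef2c, Mef2d, Nkx2-5, Tbx5, Tbx20, Hand2 and Nfatc1. They were taken by mouse gene symbol from the 43629 genes in the count files of 6 hearts. No measured value entered that rule, but the 10 genes were chosen with earlier results of these data known. Each heart was a left ventricle of a male CD-1 mouse at 1 year of age. Its dam had been injected intraperitoneally, once a day from E6.5 to E9.5, with normal saline (vehicle, n = 3) or with caffeine at 20 mg/kg (n = 3). E stands for embryonic day, and a second field of the labels ends the exposure at E10.5. Poly(A) RNA was sequenced as single reads of 75 bases on an Illumina NextSeq500. The comparison asks whether exposure of the embryo is followed by a different level of these mRNAs in the adult ventricle. The dam and litter of each heart are not stated, so every p-value below treats the 6 hearts as independent.

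These proteins bind DNA at short motifs and switch on heart genes in combination. GATA4, NKX2-5 and TBX5 form complexes on shared promoters, HAND2 and TBX20 act in the early ventricle, and the MEF2 proteins drive muscle genes once class IIa histone deacetylases release them. NFATC1 enters the nucleus after the phosphatase calcineurin removes its phosphates, and in the embryo it is best known from the endocardial cells that form the valves. Most of these genes stay on in adult heart muscle, where GATA4, MEF2 and NFAT proteins are also studied as mediators of growth under load.

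Total counts lay between 9228359 and 10483101 in the vehicle hearts and between 7613011 and 9153997 in the caffeine hearts, so that each caffeine library was the shallower. Levels are given in CPM, a gene's count relative to its library size after scaling by edgeR's TMM factors. Against the unscaled totals, 3 counts correspond to 0.286 to 0.394 CPM. No pair of hearts of a treatment agreed within counting noise (chi-square over its degrees of freedom 5.37 to 14.01), so that none was taken for a library deposited again. Cardiomyocyte and atrial marker genes were read beside the label of left ventricle. The lists held no set that separates left from right ventricle, so the side was not checked. The summed level of 7 cardiomyocyte genes was 39600 to 48300 CPM in vehicle and 36700 to 40600 CPM in caffeine hearts, and of 5 atrial genes, Myl7, Sln and Bmp10 did not pass 0.352 CPM and Myl4 did not pass 1.76 CPM in any heart. The remaining atrial gene, Stard10, lay at 21.2 to 32.7 CPM, and the atrial sum did not overlap between treatments. Over all 13092 genes tested with edgeR's quasi-likelihood test, 11 (0.084%) were called higher and 3 (0.0229%) lower with caffeine, at an adjusted p below 0.05 and a fold above 1.5. With libraries scaled by their totals alone, that split was 12 higher and 15 lower.

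All 10 transcription factor genes passed the filter on low counts, and none of the 10 was called, beside 0.107% of all genes called in either direction. By the exact, likelihood ratio, DESeq2 and limma-voom tests the number called was 0 as well. Tbx5 was the member with an unadjusted p below 0.05, which 8.82% of all genes had in either direction and 4.4% had with a lower level. The fitted log2 fold change of caffeine over vehicle was below 0 for 9 of the 10 and above 0 for Mef2c, where 49.8% of all genes lay below 0. The median of the 10 was -0.11 and that of all genes was 0.001. In 2 of the 10, Tbx5 and Mef2a, all caffeine hearts lay below all vehicle hearts, a pattern found in 7.12% of all genes in that direction and 14.2% in either. The number below 0 ranged from 7 to 10 when single hearts were left out, and was 10 with total-count scaling.

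**Figure D1:**
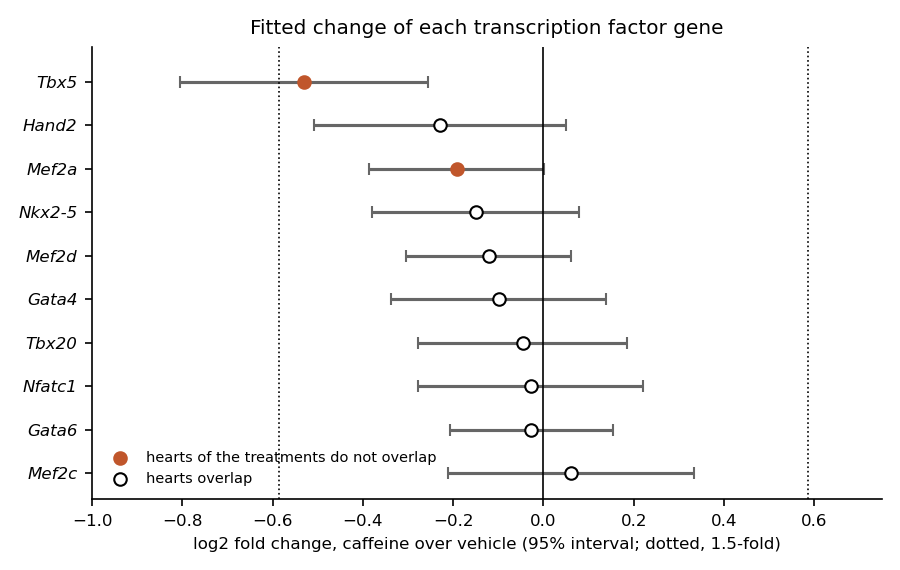
Fitted log2 fold change (caffeine over vehicle) of the 10 transcription factor genes with 95% intervals from the edgeR fit, ordered by size, where dotted lines mark a 1.5-fold change and filled points mark genes whose hearts do not overlap between treatments. The interval of Tbx5 runs from -0.81 to -0.26 and crosses the dotted line, and the other 9 intervals lie inside 1.5-fold.

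For 9 of the 10 genes the 95% interval of the fold change lay inside 1.5-fold in both directions, as it did for 63% of all genes, so a change of that size in either direction lay outside those 9 intervals. The exception was Tbx5. Vehicle heart 2 was the highest of its group for 8 of the 10 and vehicle heart 1 the lowest for 7. Caffeine heart 1 was the lowest of its group for 6. The summed level of the 10 genes was 1093, 1264 and 1203 CPM in vehicle and 1043, 1112 and 1100 CPM in caffeine hearts, which overlapped.

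**Figure D2:**
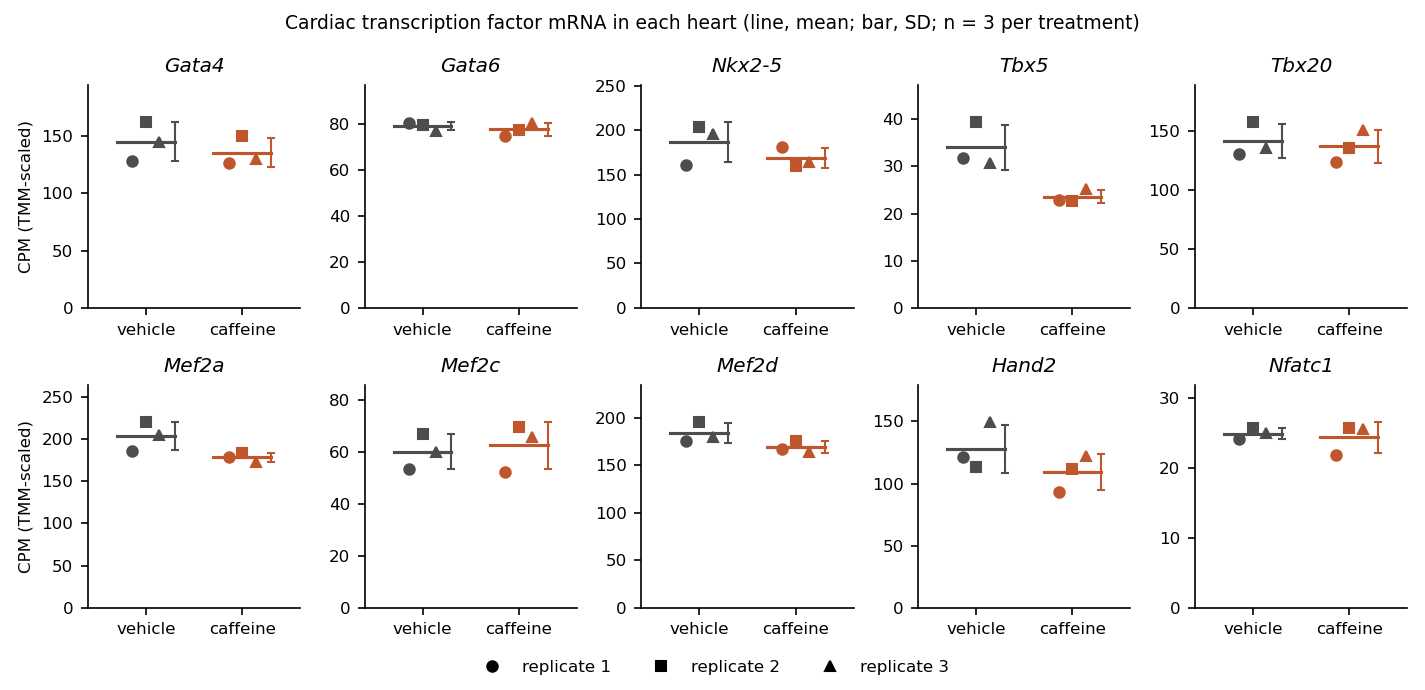
Level of each transcription factor gene in every heart, in CPM scaled by TMM on axes that start at 0, where the symbol marks the replicate number, the line the group mean and the bar its SD (n = 3). The caffeine hearts of Tbx5 sit between 22.7 and 25.1 CPM, below the vehicle hearts at 30.7 to 39.5 CPM, and for 8 of the other 9 genes the treatments overlap.

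Tbx5 (ENSMUSG00000018263, chr5:119832668-119885219 on the plus strand of GRCm38) encodes the T-box factor that is mutated in Holt-Oram syndrome of heart and forelimb and that maintains conduction and atrial genes. It measured 31.9, 39.5 and 30.7 CPM in the vehicle hearts and 22.8, 22.7 and 25.1 CPM in the caffeine hearts. These values came from 326, 417 and 303 counts in vehicle and 163, 201 and 214 counts in caffeine hearts. The lowest vehicle heart was thus above the highest caffeine heart. The means were 34.0 ± 4.76 and 23.5 ± 1.35 CPM (SD, n = 3 each), a fold of 0.692 with a 95% interval of 0.572 to 0.837. On the log2 scale the difference was -0.53 (SE 0.13), with an edgeR quasi-likelihood p of 0.00137, which ranked 93 among all genes, and an adjusted p of 0.193. The exact permutation test over hearts gave p = 0.1, the smallest that 3 against 3 can give. In 17 alternative fits the log2 difference lay between -0.62 and -0.41 and its unadjusted p stayed below 0.05. Its adjusted p passed 0.05 in 3 of them, with 0.0369 in edgeR's exact test, 0.0365 in the likelihood ratio test and 0.0041 without the filter on low counts, and in all 3 the fold was still under 1.5. DESeq2 gave an adjusted p of 0.097 and limma-voom 0.211, and leaving out single hearts gave edgeR adjusted p-values of 0.18 to 0.499. In RNA of whole tissue, fewer cells that express a gene and less of its RNA per cell cannot be told apart.

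Tbx20 (chr9:24718138-24774303, minus strand) encodes the T-box factor that keeps Tbx2 silent in the developing chambers. Its level was 130, 158 and 136 CPM in vehicle and 124, 136 and 151 CPM in caffeine hearts, which overlapped (log2 difference -0.05, SE 0.11, edgeR adjusted p = 0.948). The log2 ratio of Tbx5 to Tbx20 within a heart, computed per kilobase and independent of library scaling, was -0.67, -0.64 and -0.78 in vehicle and -1.08, -1.22 and -1.23 in caffeine hearts. Every caffeine ratio was below every vehicle ratio, with means of -0.70 ± 0.08 and -1.18 ± 0.09 (SD, n = 3, difference -0.48, exact permutation p = 0.1). The ratio uses the same Tbx5 counts as above and Tbx20 differed little, so it is not a second result beside that of Tbx5.

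**Figure D3:**
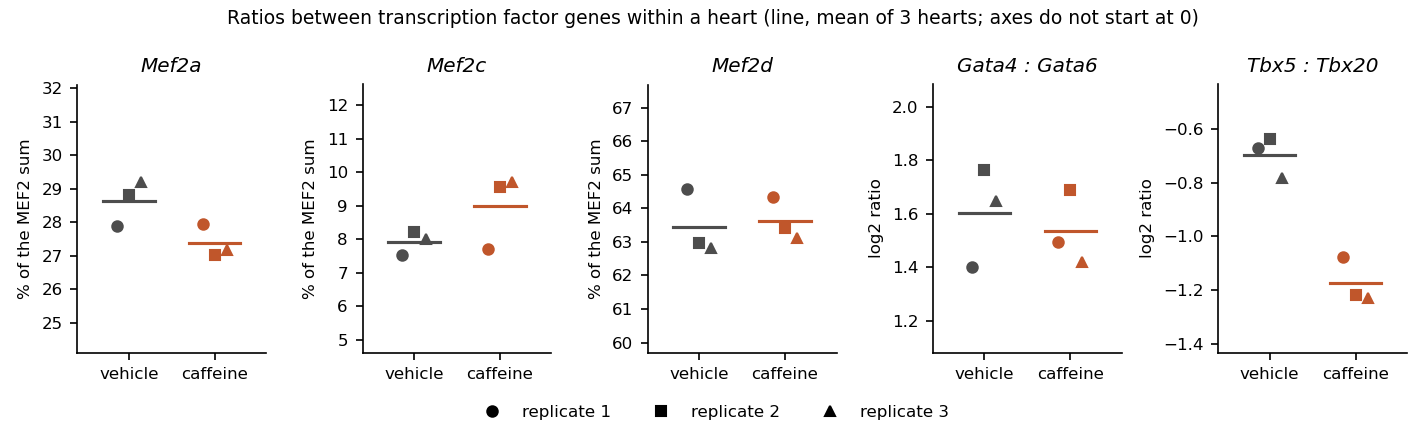
Ratios between transcription factor genes within each heart, as percent of the summed MEF2 level per kilobase (left 3 panels) or as log2 ratio (right 2 panels), on axes that do not start at 0, where symbols mark replicate numbers and lines the mean of 3 hearts. The log2 Tbx5 to Tbx20 ratio is -0.78 or higher in vehicle and -1.08 or lower in caffeine hearts, and the other ratios overlap on this scale, which divides by merged exons.

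The GATA factors differed little between treatments. Gata4 (chr14:63198922-63271692, minus strand), a zinc finger factor of the early heart field and of hypertrophic growth, measured 128, 163 and 145 CPM in vehicle and 127, 150 and 130 CPM in caffeine hearts. The log2 difference was -0.10 (95% interval -0.34 to 0.14, edgeR adjusted p = 0.853). Gata6 (chr18:11052064-11085635, plus strand), which overlaps with Gata4 in function in the myocardium, had a narrow spread, with a coefficient of variation of 2.36% over the vehicle and 3.63% over the caffeine hearts. Its values were 80.8, 79.9 and 77.2 CPM in vehicle and 75.04, 77.7 and 80.7 CPM in caffeine hearts, a log2 difference of -0.03 (95% interval -0.21 to 0.15, adjusted p = 0.963). The log2 ratio of Gata4 to Gata6 within a heart overlapped as well, at 1.604 ± 0.18 in vehicle and 1.535 ± 0.14 in caffeine hearts (SD, n = 3, exact permutation p = 0.8).

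Nkx2-5 (chr17:26838664-26845009, minus strand), the homeodomain factor of cardiac progenitors and of the conduction system, measured 161, 204 and 196 CPM in vehicle and 182, 160 and 164 CPM in caffeine hearts. The lowest vehicle heart lay among the caffeine hearts, and the log2 difference was -0.15 (SE 0.10, edgeR adjusted p = 0.738). Hand2 (chr8:57320983-57324633, plus strand), a basic helix-loop-helix factor needed for the right ventricle, measured 121, 113 and 150 CPM in vehicle and 93.4, 112 and 122 CPM in caffeine hearts. These also overlapped, with a log2 difference of -0.23 (95% interval -0.51 to 0.05, adjusted p = 0.656). Hand2os1, a long non-coding RNA on the opposite strand, shares 13.75% of the 75-base words of Hand2. It measured 74.3, 86.4 and 68.0 CPM in vehicle and 79.2, 52.4 and 56.8 CPM in caffeine hearts. Whether the counting used strand is not given in the sources used here, so reads from the shared stretch cannot be told apart.

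The MEF2 genes encode close relatives. To show how near the copies come, the start of each coding sequence is given from the ATG for 90 bases, the beginning of the stretch that encodes the DNA-binding MADS box, with capitals for bases identical in all 3 (GENCODE M21 transcripts on GRCm38).
Mef2a: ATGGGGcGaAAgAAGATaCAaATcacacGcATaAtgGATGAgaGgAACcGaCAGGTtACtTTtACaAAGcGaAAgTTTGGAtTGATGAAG
Mef2c: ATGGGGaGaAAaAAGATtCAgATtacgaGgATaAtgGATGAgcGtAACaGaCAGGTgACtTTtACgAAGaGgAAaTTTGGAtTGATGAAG
Mef2d: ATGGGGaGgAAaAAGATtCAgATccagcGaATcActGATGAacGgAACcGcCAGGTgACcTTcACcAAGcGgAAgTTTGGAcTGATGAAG
Of these 90 bases, Mef2a and Mef2c share 74, Mef2a and Mef2d 69, and Mef2c and Mef2d 71. The longest identical run over the whole coding sequences was 28 bases, between Mef2c and Mef2d, and no 75-base word of their transcripts was shared between any of the 10 factors.

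Mef2a (chr7:67231163-67372858, minus strand) was the MEF2 gene whose hearts did not overlap. It measured 186, 220 and 204 CPM in vehicle and 178, 184 and 173 CPM in caffeine hearts. The gap between the lowest vehicle and the highest caffeine heart was small beside the vehicle spread, and the log2 difference was -0.19 (95% interval -0.39 to 0.002, edgeR adjusted p = 0.576, exact permutation p = 0.1). Mef2a shares 2.56% of its 75-base words with other genes, most of them with Lysmd4 on the opposite strand, which measured 26.4 to 32.1 CPM in vehicle and 19.9 to 26.7 CPM in caffeine hearts. Mef2d (chr3:88142372-88172086, plus strand), a MEF2 factor tied to pathological growth, measured 176, 196 and 179 CPM in vehicle and 167, 176 and 163 CPM in caffeine hearts. Its treatments met at 176 CPM, with a log2 difference of -0.12 (SE 0.08, adjusted p = 0.733). An antisense gene that shares 7.29% of the words of Mef2d did not pass 0.235 CPM in any heart. Mef2c (chr13:83504034-83667080, plus strand), the member needed for looping of the embryonic heart, measured 53.6, 67.0 and 60.0 CPM in vehicle and 52.5, 69.6 and 66.0 CPM in caffeine hearts. The fitted log2 difference was 0.06 (95% interval -0.21 to 0.33, adjusted p = 0.936) and turned to -0.02 with total-count scaling.

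The shares of the MEF2 genes within a heart depend on the length by which counts are divided. Over merged exons, Mef2d made up 63.5 ± 0.987% of the summed level per kilobase in vehicle and 63.6 ± 0.648% in caffeine hearts (SD, n = 3, exact permutation p = 0.7). The share of Mef2a was 28.6 ± 0.666% and 27.4 ± 0.496% (exact permutation p = 0.2). Mef2c accounted for 7.51%, 8.21% and 8.0% in vehicle and for 7.70%, 9.57% and 9.72% in caffeine hearts. The caffeine hearts 2 and 3 lay above the vehicle range and caffeine heart 1 inside it (exact permutation p = 0.3). Divided by the longest transcript, Mef2a was the largest share, with 45.004%, 45.8% and 46.3% in vehicle and 44.993%, 43.2% and 43.3% in caffeine hearts. On that scale every caffeine heart was below every vehicle heart for Mef2a, by a narrow margin (difference -1.89 percentage points, exact permutation p = 0.1). The share of Mef2d was then 42.4 ± 1.04% in vehicle and 42.6 ± 0.650% in caffeine hearts, and that of Mef2c 11.9 ± 0.447% and 13.6 ± 1.64% (SD, n = 3), and both overlapped.

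Nfatc1 (chr18:80606205-80713071, minus strand) measured 24.1, 25.6 and 24.9 CPM in vehicle and 21.8, 25.7 and 25.6 CPM in caffeine hearts. The groups overlapped, with a log2 difference of -0.03 (95% interval -0.28 to 0.22, edgeR adjusted p = 0.972). The counts are per gene and do not separate its 7 annotated transcripts.

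**Figure D4:**
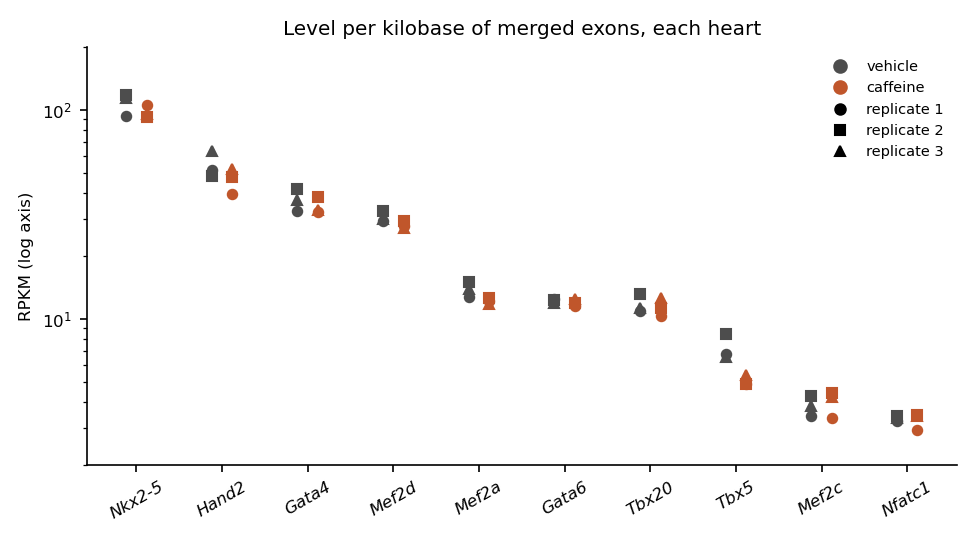
Level of each transcription factor gene per kilobase of merged exons (RPKM, log axis) in every heart, ordered by the vehicle mean, with vehicle hearts at left and caffeine hearts at right of each name. Nkx2-5 stands alone near 100 RPKM, and Mef2c and Nfatc1 lie lowest, below 5 RPKM.

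Set against length, in RPKM over merged exons, the 10 genes covered a wide range of levels. Nkx2-5 was highest, at 108.8 ± 13.2 RPKM in vehicle hearts (SD, n = 3), above 96.9% of the tested genes. Hand2 (54.4 ± 8.20), Gata4 (37.2 ± 4.42) and Mef2d (30.7 ± 1.78 RPKM) followed. Mef2a (13.9 ± 1.15), Gata6 (12.2 ± 0.287) and Tbx20 (11.8 ± 1.21 RPKM) formed a middle group. Tbx5 measured 7.27 ± 1.02 RPKM in vehicle and 5.03 ± 0.290 RPKM in caffeine hearts. Mef2c (3.83 ± 0.425) and Nfatc1 (3.33 ± 0.101 RPKM) were lowest and lay near the middle of all tested genes. Over the 6 hearts, neighbours in this order overlapped for Hand2 and Gata4, Gata4 and Mef2d, Mef2a and Gata6, Gata6 and Tbx20, and Mef2c and Nfatc1. The order depends on the length used. Divided by the longest transcript, Mef2a stood at 36.7 RPKM in vehicle hearts, above Mef2d at 34.0 RPKM, and Mef2c at 9.59 RPKM stood above Tbx5 at 8.63 RPKM.

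Of 17 family relatives of these factors, 9 passed the filter on low counts. Of these, 0 were called (0.107% of all genes) and 0 had an unadjusted p below 0.05 (8.82% of all genes). Hearts that did not overlap were found for 0 of the 9, and for 14.2% of all genes in either direction. By the exact, likelihood ratio, DESeq2 and limma-voom tests 0 were called too. Nkx2-3, Nkx2-6, Tbx4 and Hand1 had no count in any heart. The smallest p-values belonged to Nfatc2, the NFAT of T cells and other tissues (17.0 ± 1.93 and 19.6 ± 0.746 CPM, edgeR adjusted p = 0.701), and to Tbx18, a sinus node and epicardial factor (5.97 ± 1.48 and 4.66 ± 0.753 CPM, adjusted p = 0.725; vehicle before caffeine, SD, n = 3). Tbx3, which marks conduction tissue, measured 16.9, 22.3 and 29.2 CPM in vehicle and 18.9, 26.8 and 14.1 CPM in caffeine hearts, and these overlapped. The other tested relatives were Nfat5 (36.8 to 50.9 CPM in vehicle hearts), Nfatc3 (35.0 to 44.5), Gata2 (20.2 to 21.8), Tbx2 (8.21 to 9.46), Nfatc4 (3.62 to 5.49) and Gata3 (1.27 to 1.62 CPM), with caffeine hearts that overlapped them.

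Among 26 cofactors, deacetylases and calcineurin regulators of these factors, all tested, 6 had a fitted difference above 0 and 20 below 0 (median -0.09). Over all genes, 49.8% lay below 0. By the quasi-likelihood, exact, likelihood ratio, DESeq2 and limma-voom tests, 0 of the 26 were called, where the first called 0.107% of all genes. An unadjusted p below 0.05 was found for 4, of which 1 was higher and 3 lower, beside 8.82% of all genes in either direction. Rcan1, the feedback inhibitor of calcineurin that NFAT itself induces, measured 157, 133 and 137 CPM in vehicle and 203, 202 and 206 CPM in caffeine hearts. All caffeine hearts lay above the vehicle hearts, as in 7.11% of all genes, with a fold of 1.43 (log2 0.52, SE 0.09) and an edgeR adjusted p of 0.0617. Without vehicle heart 1 its fold passed 1.5 and its adjusted p was 0.0323. Of the 4 class IIa deacetylases that hold MEF2 inactive, Hdac5 and Hdac4 lay lower in all caffeine hearts, as 7.12% of all genes did, without passing the test. Hdac5 averaged 115 ± 3.32 CPM in vehicle and 96.6 ± 4.56 CPM in caffeine hearts (SD, n = 3, log2 -0.25, edgeR adjusted p = 0.361). Hdac4 averaged 29.7 ± 5.39 and 23.5 ± 0.673 CPM (log2 -0.34, adjusted p = 0.501). Hdac7 and Hdac9 overlapped between treatments (log2 -0.07 and -0.14, adjusted p = 0.949 and 0.886). Rcan2, a relative of Rcan1, was also below in every caffeine heart, at 785 ± 28.9 and 703 ± 8.27 CPM (log2 -0.16, adjusted p = 0.605). The calcineurin subunit genes Ppp3ca, Ppp3cb and Ppp3r1 overlapped between treatments.

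Of 26 other heart transcription factors, 21 were tested, 6 with a difference above 0 and 15 below 0 (median -0.14). Over all genes, 49.8% lay below 0. By the quasi-likelihood, exact, likelihood ratio, DESeq2 and limma-voom tests, 0 of the 21 were called, where the first called 0.107% of all genes. The unadjusted p was below 0.05 for 3, all lower, beside 8.82% of all genes in either direction and 4.4% lower. Sox4, a factor of outflow tract formation, averaged 9.35 ± 3.40 CPM in vehicle and 5.11 ± 1.03 CPM in caffeine hearts, which overlapped (SD, n = 3, log2 -0.88, edgeR adjusted p = 0.351). Prdm16, a factor of compact ventricular muscle, averaged 11.8 ± 1.73 and 8.19 ± 1.86 CPM (log2 -0.53, adjusted p = 0.415). Meis2 (20.6 ± 2.08 and 16.6 ± 1.04 CPM, adjusted p = 0.512), the Notch effector Hey2 (6.72 ± 0.486 and 5.20 ± 0.606 CPM, adjusted p = 0.62) and the endothelial factor Sox17 (17.7 ± 2.16 and 15.1 ± 0.507 CPM, adjusted p = 0.676) were below vehicle in every caffeine heart. This pattern was found in 7.12% of all genes in that direction.

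**Figure D5:**
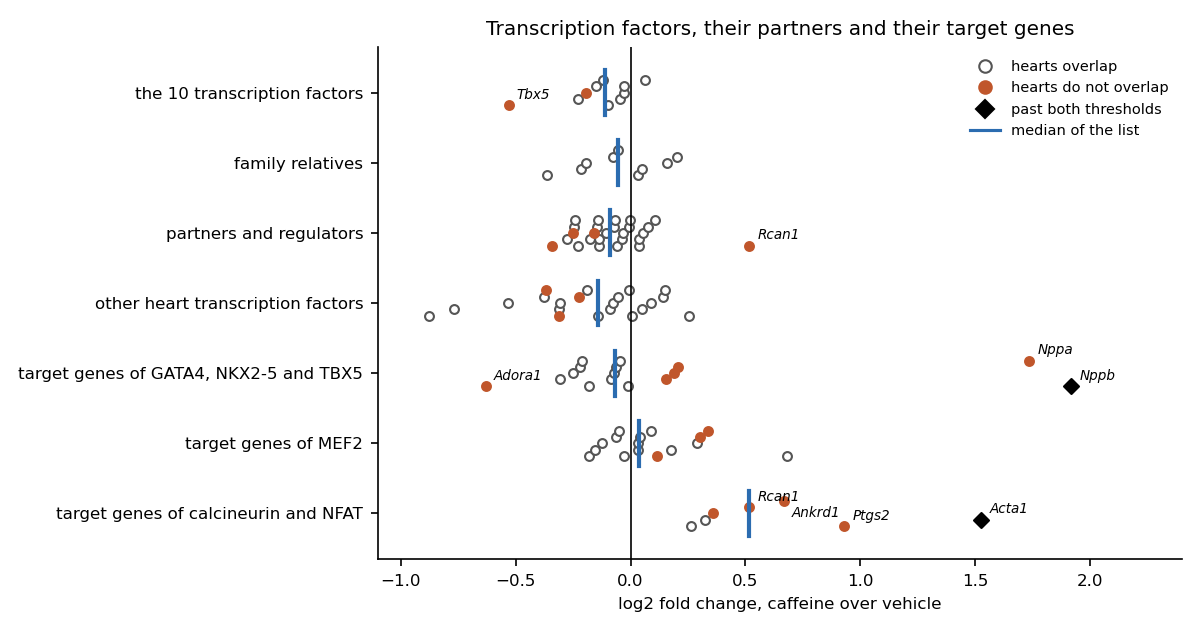
Log2 fold change (caffeine over vehicle) of every tested gene of the transcription factor set, its relatives, partners and target genes, where filled circles mark genes whose hearts do not overlap, diamonds genes past both thresholds and blue bars list medians. Nppb (1.92) and Acta1 (1.53) are the diamonds, while the transcription factors themselves lie between -0.53 and 0.06.

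Known target genes spread further than the factors. The target lists were chosen with earlier results of these data known, so their counts describe the lists and are not a test. Of 16 targets of GATA4, NKX2-5 and TBX5, all tested, 5 were higher and 11 lower in the fit (median -0.07), 5 had an unadjusted p below 0.05 (8.82% of all genes) and 1 was called (0.107% of all genes). The hearts did not overlap in 6, of which 5 were higher and 1 lower, where 14.2% of all genes did not overlap in either direction. Nppb, which encodes the B-type natriuretic peptide, rose from 158, 151 and 236 CPM in vehicle to 779, 672 and 608 CPM in caffeine hearts. Its fold was 3.78 (95% interval 2.94 to 4.86, edgeR adjusted p = 0.00228). Nppa, which encodes the atrial natriuretic peptide, measured 51.3, 90.2 and 180 CPM in vehicle and 266, 370 and 433 CPM in caffeine hearts. Every caffeine heart was above every vehicle heart, but the vehicle hearts were far apart and the adjusted p was 0.125 (log2 1.74, SE 0.35). It was called without vehicle heart 3, with an edgeR adjusted p of 0.00962.

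The promoters of these 2 genes are given because their levels differed most between treatments among the targets of the set. They run from 250 bases before the transcription start to 50 bases from it, in the RefSeq table of GRCm38.p6, and capitals mark matches to the motifs searched.
Nppb: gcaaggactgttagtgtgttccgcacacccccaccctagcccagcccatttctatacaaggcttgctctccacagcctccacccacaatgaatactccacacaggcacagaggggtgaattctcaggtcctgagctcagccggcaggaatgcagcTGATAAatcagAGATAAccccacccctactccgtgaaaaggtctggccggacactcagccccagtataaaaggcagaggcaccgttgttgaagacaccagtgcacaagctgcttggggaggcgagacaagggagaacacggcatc
Nppa: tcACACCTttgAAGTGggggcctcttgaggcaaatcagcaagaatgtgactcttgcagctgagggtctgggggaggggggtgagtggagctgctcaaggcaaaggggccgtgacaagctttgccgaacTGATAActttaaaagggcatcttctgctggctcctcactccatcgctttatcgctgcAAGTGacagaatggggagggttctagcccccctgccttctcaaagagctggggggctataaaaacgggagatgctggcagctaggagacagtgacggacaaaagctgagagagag
The Nppb window is chr4:147985650-147985949 and the Nppa window chr4:148000472-148000771, both on the plus strand. The motifs searched on both strands were NGATAN for GATA factors, with A or T in front and A or G behind, AAGTG for NKX2-5, AGGTGT for T-box factors and TANNNNTA with A or T at each N for MEF2. The Nppb window held 2 GATA matches, TGATAA at -95 to -90 and AGATAA at -84 to -79, with the start counted as 0, and none of the other motifs. The Nppa window held TGATAA at -122 to -117, AAGTG at -239 to -235 and at -65 to -61, and the T-box letters on the minus strand at -248 to -243. A GATA match of this kind is present in 29.8% of 32851 promoters, AAGTG in 46.4%, AGGTGT in 13.7% and the MEF2 letters in 9.3%. Among the 10 factors, 6 had a promoter in the table. Hand2 held 2 GATA matches and 1 AAGTG, and the Mef2a window held the MEF2 letters at -1 to 6 from the transcription start. Mef2d, Tbx20 and Nkx2-5 held none of the motifs. Mef2c had 3 windows, each with 1 AAGTG, of which 1 also held AGGTGT and 1 the MEF2 letters.

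Adora1, the A1 adenosine receptor on which caffeine acts as an antagonist, was on the list as a GATA and NKX2-5 target. It measured 37.4, 32.1 and 35.2 CPM in vehicle and 21.3, 20.2 and 26.03 CPM in caffeine hearts. Every caffeine heart was lower, with a fold of 0.646 (log2 -0.63, SE 0.13) and an edgeR adjusted p of 0.122. It was called by DESeq2 with an adjusted p of 0.0199. The same motif search in its promoter window chr1:134235408-134235707 found 1 AAGTG (present in 46.4% of promoters) and 0 GATA matches. Its window chr1:134234807-134235106 held 0 matches to any of the motifs. The sarcomere and desmin genes Tnnc1, Des and Actc1 lay above vehicle in every caffeine heart by small steps (log2 0.21, 0.19 and 0.16, edgeR adjusted p = 0.561, 0.608 and 0.681). Gja5, a gap junction gene that depends on TBX5, overlapped, with a log2 difference of -0.05 (edgeR adjusted p = 0.964).

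Of 16 MEF2 targets, 10 were higher and 6 lower (median 0.04), and 2 had an unadjusted p below 0.05 (8.82% of all genes). By the quasi-likelihood, exact, likelihood ratio, DESeq2 and limma-voom tests, 0 of the 16 were called, where the first called 0.107% of all genes. Jun averaged 67.6 ± 4.43 CPM in vehicle and 83.2 ± 2.3 CPM in caffeine hearts (SD, n = 3, edgeR adjusted p = 0.297), and Klhl40, a thin filament stabilizer, 31.4 ± 3.8 and 39.6 ± 3.57 CPM (adjusted p = 0.413). These 2 genes and the myoglobin gene Mb (adjusted p = 0.796) lay above vehicle in every caffeine heart, as 7.11% of all genes did.

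The list of calcineurin and NFAT targets held 9 genes, of which 7 were tested and all 7 were higher in the fit (median 0.52). The unadjusted p was below 0.05 for 5 (8.82% of all genes), the hearts did not overlap in 5 (14.2% of all genes in either direction, 7.11% higher), and 1 was called (0.107% of all genes). Acta1, skeletal alpha-actin, rose from 956, 762 and 1111 CPM in vehicle to 2539, 3148 and 2455 CPM in caffeine hearts, a fold of 2.88 (95% interval 2.31 to 3.59, edgeR adjusted p = 0.00296). Myh7, the slow myosin heavy chain, averaged 747 ± 33.3 and 957 ± 93.3 CPM (SD, n = 3, log2 0.36, adjusted p = 0.246). Ankrd1, a stress-responsive titin partner, measured 2109, 1729 and 3449 CPM in vehicle and 3761, 3895 and 3902 CPM in caffeine hearts (adjusted p = 0.317). It was called without vehicle heart 3 (adjusted p = 0.00962). Ptgs2, which encodes cyclooxygenase-2, lay near 1 CPM (log2 0.93, adjusted p = 0.431), and Rcan1, given above, is in this list too. Acta1, Ankrd1 and Myh7 also answer to other regulators of heart muscle, so the list is not specific to NFAT. It too was chosen with earlier results of these data known, and its counts are not a test.

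The summed levels of 4 of 13 marker lists did not overlap between treatments, and these sums were not tested. Of single genes, 14.2% did not overlap in either direction. The 7 fibroblast genes were all higher in the fit (median log2 0.26). Of them, 4 had an unadjusted p below 0.05 (8.82% of all genes) and 0 were called (0.107% of all genes). They summed to 854 to 1020 CPM in vehicle and 1100 to 1260 CPM in caffeine hearts. The 5 lymphocyte genes summed to 6 to 8 counts (0.586 to 0.757 CPM) and 10 to 13 counts (1.17 to 1.54 CPM). The 8 skeletal muscle genes summed to 10 to 12 counts (1.01 to 1.17 CPM) and 2 to 4 counts (0.235 to 0.451 CPM), which is at the level of the 3-count floor in caffeine hearts, with Myh1, Myh4 and Pax7 at 0 counts in every heart. The 5 atrial genes summed to 28.3 to 34.2 and 23.6 to 26.5 CPM, most of it Stard10. The 7 macrophage genes summed to 116 to 171 and 134 to 263 CPM, which overlapped. All 7 were higher in the fit (median log2 0.43). Csf1r, Adgre1 and Fcgr1 lay above vehicle in every caffeine heart, as 7.11% of all genes did. Of the 7, 2 had an unadjusted p below 0.05 (8.82% of all genes) and 0 were called by edgeR's quasi-likelihood test (0.107% of all genes). The exact and likelihood ratio tests called Adgre1 and the fibroblast gene Col3a1, DESeq2 called Col3a1, and limma-voom called 0 genes of these lists. Cardiomyocyte, endothelial (681 to 783 and 704 to 754 CPM), endocardial (78.8 to 171 and 110 to 129 CPM), smooth muscle, epicardial, adipocyte, red blood cell and Schwann cell sums overlapped between treatments. All 7 cardiomyocyte genes were lower in the fit (median log2 -0.07), where 49.8% of all genes lay below 0. By edgeR's quasi-likelihood test, 0 of these 7 had an unadjusted p below 0.05 (8.82% of all genes). The part of these marker levels in the level of Tbx5 or Mef2a was not tested.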

How the data were processed

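Left ventricular poly(A) RNA of 6 hearts, 3 per treatment, was analysed. Groups and replicate numbers came from the sample labels. Per the labels and the study's methods, the authors cleaned reads with FastQC, aligned them with TopHat2 to mm10, the GRCm38 build, and obtained gene counts from HTSeq with an Ensembl annotation. The deposited values are raw counts for 43629 genes per heart, with no normalization or pooling. Tool versions and the strand setting are not given in the sources used here. No mitochondrial gene had a count, and the 10 highest genes held 17.07% to 25.95% of a library.

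Symbols, positions and exon lengths came from GENCODE M21 on GRCm38, in which 1167 identifiers had no symbol. Genes were filtered with filterByExpr (minimum count 10, minimum total 15), which left 13092, normalized by TMM and fitted with edgeR's glmQLFit on treatment alone and tested with glmQLFTest. Genes with a Benjamini-Hochberg adjusted p below 0.05 and a fold above 1.5 were called. The SE is the absolute log2 fold change over the square root of F. Levels per kilobase (RPKM) were computed from these CPM. Single genes were compared with the exact two-sided permutation test over 20 labelings, on log2 CPM with an offset of 0.5. The same test was run on the MEF2 shares in percent and on the log2 ratios of counts per kilobase, without an offset.

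The 10 genes, the other lists and the tests were chosen with earlier results of these data known. The text names all 10 factors and, of each other list, the genes called, the genes whose hearts do not overlap, the 2 with the smallest p and the tested family relatives. Gja5 and the calcineurin subunits were named after their values were seen. A further gene of the target lists is not reported here. Fits ran in R 4.3.3 with limma 3.58.1, DESeq2 1.42.0 and edgeR 4.0.16, and tables and figures in Python 3.11.15 with NumPy 2.4.6, Matplotlib 3.10.9 and pandas 2.3.3. The fits were tested on simulated data. The alternatives were edgeR's exact and likelihood ratio tests, DESeq2, limma-voom, size factors by relative log expression or upper quartile, total counts alone, the 10 highest genes left out, no filter, 10 counts in every heart, the replicate block, no fold threshold, each heart left out, and the longest transcript as length.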

Additional observations from a re-analysis of the deposited data

How the results depend on the processing

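None of the 10 transcription factor genes was called under any alternative. Over all genes, the numbers called higher and lower were 62 and 33 in edgeR's exact test, 63 and 38 in the likelihood ratio test, 39 and 28 with DESeq2, 12 and 15 with total-count scaling, 145 and 95 without the filter, and 29 and 11 with the replicate block. With single hearts left out they ranged from 4 to 17 and from 0 to 13, and were 4 and 0 without vehicle heart 2 or caffeine heart 3. The cause was not tested. Of the targets of GATA4, NKX2-5 and TBX5, 3 were called by the exact test, the likelihood ratio test and without the filter, 2 by DESeq2 and with the replicate block, and 1 to 2 with single hearts left out. Without the filter, 1 other heart transcription factor (Sox4), 1 MEF2 target (Nr4a1) and 2 NFAT targets were called. Leaving out single hearts gave 0 to 1 called partners (Rcan1, without vehicle heart 1) and 1 to 2 NFAT targets. The sign turned for Mef2c with total-count scaling (log2 -0.024), and with single hearts left out the log2 difference ranged from -0.021 to 0.172 for Mef2c, -0.121 to 0.041 for Tbx20 and -0.069 to 0.042 for Nfatc1. The difference in Mef2d share ranged from -0.196 to 0.737 percentage points and that in the log2 Gata4 to Gata6 ratio from -0.171 to 0.01. With the longest transcript as length, vehicle levels were 122.6 (Nkx2-5), 42.7 (Gata4), 36.7 (Mef2a), 34.0 (Mef2d), 20.95 (Gata6), 15.5 (Tbx20), 9.59 (Mef2c), 8.63 (Tbx5) and 5.19 RPKM (Nfatc1), by construction.

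Hearts with the same replicate number were not alike in their deviations from the group means, which cannot exclude a pairing. Deviations of same-numbered hearts correlated at 0.05, -0.03 and -0.04, and those of differently numbered hearts at -0.08 to 0.12. With the replicate block, 29 of all genes were called higher and 11 lower, against 11 and 3 without it. Tbx5 then had a log2 difference of -0.53 and an edgeR adjusted p of 0.181. The other factors also kept their sign and were not called. Depth limits the low genes most, since 3 counts reach 0.394 CPM against the unscaled total of the shallowest library.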
